A study of Mus musculus with 12 samples.

Results

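Nuclear oxidative phosphorylation genes are the genes of the cell nucleus that encode the 5 complexes of the mitochondrial respiratory chain and ATP synthase. They were chosen by name. Members are all symbols in the table that begin with Nduf, Uqcr or Atp5, the succinate dehydrogenase genes Sdha to Sdhd, and the symbols that begin with Cox4 to Cox8, without those marked as pseudogenes by -ps. This gave 86 of the 18546 genes in the table. Complex I (NADH dehydrogenase) had 43 members, complex II (succinate dehydrogenase) 4, complex III (cytochrome bc1) 8, complex IV (cytochrome c oxidase) 14 and complex V (ATP synthase) 17. Of the complex I genes, 7 encode core subunits, 29 accessory subunits and 7 assembly factors (Ndufaf). Cox7a2l, a factor that joins complexes into supercomplexes, and Ndufa4, now counted as a cytochrome c oxidase subunit, were placed in complex IV. Atp5s and Atp5sl carry ATP synthase names but are not subunits of the enzyme.

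RNA was measured in SLAM hematopoietic stem cells (HSCs), the cells of mouse bone marrow that carry CD150, Sca1 and cKit and lack CD48 and lineage markers. All mice were C57BL/6, aged 10 to 12 weeks. The 4 genotypes were the compound mutant NrasG12D/+;Tet2+/-, the NrasG12D/+ single mutant (hereafter Nras), the Tet2+/- single mutant (Tet2) and wild type, with 3 libraries each. NrasG12D is an activated Ras GTPase, and Tet2+/- lacks 1 copy of a DNA demethylation enzyme. The labels used here name neither a promoter nor a Cre line for the alleles, and do not say whether each library came from 1 mouse. P-values therefore measure the spread between these libraries, which may in part be technical.

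The respiratory chain passes electrons from NADH through complex I, or from succinate through complex II, to ubiquinone, then through complex III and cytochrome c to complex IV, where oxygen is reduced. Complexes I, III and IV pump protons, and complex V uses the resulting gradient to make ATP. Complexes I, III, IV and V each combine nuclear-encoded subunits with a few subunits encoded by mitochondrial DNA, while complex II is encoded wholly in the nucleus. Adult HSCs are known for low mitochondrial respiration and a reliance on glycolysis while quiescent, and for a rise in oxidative phosphorylation when they become active or differentiate.

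The 12 libraries held 19205045 to 36890942 reads in genes, and 0.283% to 0.336% of those reads fell on the 86 members. Wild-type replicate 1 had the fewest reads in genes and 3824 genes at 0 reads. Nras replicate 2 followed with 3268, and the other 10 libraries had 1000 to 2621. Markers of the sorting gate were present in every library: Kit, which encodes cKit, had 64.7 to 85.99 RPKM, Slamf1, which encodes CD150, 3.17 to 11.3 RPKM and Ly6a, which encodes Sca1, 2.21 to 8.32 RPKM (reads per kb of gene length, scaled to library size). Cd48, which the gate excludes, had at most 1.28 RPKM. Summed over 8 HSC gate genes, compound libraries had 175.7 to 207.4 RPKM and Nras libraries 167 to 211.1 RPKM. Tet2 libraries, at 218.7 to 228 RPKM, lay above both, and wild-type libraries had 189.5 to 223.6 RPKM. The part of this difference in the comparisons below was not tested. Of the other cell types, 6 megakaryocyte and platelet genes summed to 37.7 to 44.9 RPKM in compound, 32.3 to 57.8 RPKM in Nras, 25.3 to 31.7 RPKM in Tet2 and 25.3 to 37.4 RPKM in wild-type libraries. The compound sums lay above every Tet2 and every wild-type library. Of 7 stroma and endothelium genes listed, 3 had values. They summed to 7.53 to 9.24 RPKM in compound, 6.93 to 8.88 RPKM in Nras, 6.36 to 7.95 RPKM in Tet2 and 6.19 to 6.87 RPKM in wild-type libraries. Compound and Nras lay above all wild-type libraries. No marker with values in either list was at 0 reads in all libraries, and the part of these cell types in the comparisons below was not tested. The 6 erythroid genes with values, of 8 listed, summed to 4.1 to 24.9 RPKM over all libraries. Tet2 libraries, at 5.12 to 13.6 RPKM, lay below wild-type libraries at 15.1 to 21.3 RPKM. The 2 B lineage genes with values, of 5 listed, summed to 3.56 to 4.02 RPKM in compound libraries. These lay below Nras libraries at 5.97 to 7.91 RPKM and wild-type libraries at 4.52 to 6.68 RPKM. In Tet2 libraries the B lineage sum was 3.06 to 5.49 RPKM, also below Nras. Granulocyte (6 of 8 listed genes), monocyte and macrophage (2 of 5) and T and NK (3 of 5) sums overlapped between genotypes. The part of these cells was not tested either. By Xist the sexes were mixed, with 1 male and 2 female libraries in compound, Nras and wild type each, and 2 male and 1 female in Tet2. With sex as a term, an alternative chosen after seeing the data, no member passed the test either. The targeted genes stood at 4.76 to 6.83 RPKM (Nras) and 4.09 to 7.03 RPKM (Tet2) over the 12 libraries, with overlapping genotypes. Whole-gene values do not show which allele was transcribed.

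Levels of different members can be compared only per length, and the length behind the deposited RPKM needed a check. Gene lengths recovered from the deposited values equalled the summed length of all annotated transcripts of the gene in GENCODE M21 for 53 of 84 members with 1 match there. For 6 of these 53, each with 1 annotated transcript, they equalled the merged exons as well. The deposited length was longer than the gene itself for 12 members. The deposited length was 2.39 times the principal coding transcript in the median member, with a range of 0.807 for Ndufa4 to 9.05 for Ndufb8. Deposited RPKM therefore lies furthest below a level per coding transcript in Ndufb8, Uqcrc1 and Atp5j. Differences between genotypes within a gene are not affected, since the length is the same in every library. Levels between genes are given below as reads per kb of the principal coding transcript, scaled to library size as RPKM is (reads per coding kb), and values by genotype as deposited RPKM. The reads were counted over the whole gene, so a level per coding kb assumes that they came from the coding transcript.

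The members spanned a wide range of levels. Over 84 members the median was 19.9 reads per coding kb, against 10.3 for protein-coding genes in general. The alpha and beta subunits of the catalytic head of ATP synthase were by far the most abundant. Atp5b, the beta subunit, averaged 219.8 reads per coding kb and Atp5a1, the alpha subunit, 187.9. Cox7a2l followed with 86.3, Cox4i1, the usual form of cytochrome c oxidase subunit 4, with 72.3, and Atp5j, which encodes coupling factor 6 in the stalk of ATP synthase, with 72.2. The lowest were Atp5g1, 1 of 3 genes for the membrane ring subunit c, with 1.37, Cox4i2, a form of subunit 4 known from lung, with 1.41, and Ndufs5, an accessory subunit of complex I, with 3.19. The reads of Atp5g1 were divided by the longest coding transcript of the 84, at 4715 bases. Medians per complex were 14.2 reads per coding kb in complex I, 27.0 in complex II, 25.4 in complex III, 21.3 in complex IV and 29.1 in complex V. These medians depend on the roles that the naming rule took in. Only complex I includes assembly factors, 7 with a median of 7.14, and complex IV includes Cox7a2l. Over subunits alone the median was 17.6 in complex IV (13 genes) and 32.8 in complex V (14 genes).

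**Figure D1:**
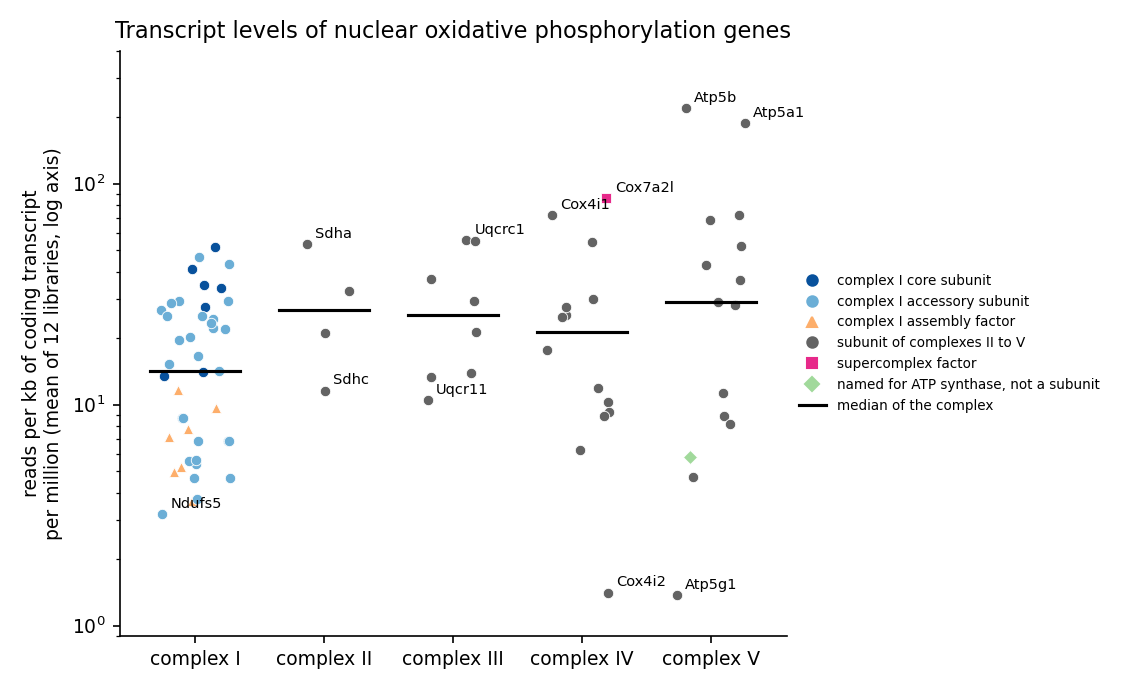
Reads per coding kb, scaled to library size and averaged over 12 libraries, for 84 members by complex on a log axis, with the colour and shape of a point giving the role of its gene and black lines the median of each complex. Atp5b at 219.8 and Atp5a1 at 187.9 stand above all others, and the assembly factors of complex I lie below its median of 14.2.

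Within complex I, levels followed the roles of the subunits. The 7 core subunits, which carry the flavin and the iron-sulfur clusters, had a median of 33.6 reads per coding kb, and the lowest was Ndufs8 with 13.5. The 29 accessory subunits had a median of 16.6 and a range of 3.19 to 46.4, led by Ndufa6 and Ndufb9, both of the LYR motif family. The 7 assembly factors had a median of 7.14 and a range of 3.66 to 11.6, with Ndufaf7, a methyltransferase, the highest. In complex II, Sdha, the flavoprotein, reached 53.5 reads per coding kb and Sdhb, the iron-sulfur subunit, 32.8. The membrane anchors were lower, Sdhd at 21.1 and Sdhc at 11.6. In complex III, the core protein gene Uqcrc1 had 55.6, the hinge protein gene Uqcrh 55.1 and the Rieske protein gene Uqcrfs1 37.0. The other core protein gene, Uqcrc2, had 29.5, and Uqcrb 21.3. The small subunits Uqcr10, Uqcrq and Uqcr11 had 13.9, 13.3 and 10.5.

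Several subunits are encoded by more than 1 gene, and 1 form dominated in most of these sets. Cox4i1 held 98.0% ± 2.72 (SD over 12 libraries) of the subunit 4 level per coding kb, and Cox4i2 the rest, with 0 reads in 6 libraries. Of the 3 genes that encode the same mature subunit c, Atp5g3 held 83.4% ± 5.22, Atp5g2 14.3% ± 4.59 and Atp5g1 2.35% ± 1.64. The coding transcript had 4715 bases in Atp5g1, 731 in Atp5g2 and 723 in Atp5g3, and these shares rest on those lengths. Atp5g1 had 3 to 379 reads per library. Atp5g2 had 96 to 292 reads per library. Its pseudogene copies Gm10175 and Gm10231, identical over 88.2% and 60.3% of its coding transcript, averaged 201 and 151 reads. Their part in these shares was not tested. Cox7a2l held 88.1% ± 6.75 of the level it shared with Cox7a2, the subunit it resembles. Per coding kb, the exception was subunit 6b, and this rests on the length used. The deposited length was 7.29 times the coding transcript for Cox6b2 and 0.817 times for Cox6b1. By deposited RPKM Cox6b1 was far higher, with means of 31.2 RPKM for Cox6b1 and 2.42 RPKM for Cox6b2. The shares that follow are per coding kb. Cox6b1, the widely expressed form, held 59.6% ± 17.7 and Cox6b2, a form known from testis, 40.4% ± 17.7, with a range of 4.45% to 71.1% between libraries. The share of Cox6b2 was 45.3% ± 12.4 in compound, 50.1% ± 7.57 in Nras, 45.2% ± 22.9 in Tet2 and 20.9% ± 14.4 in wild-type libraries (SD, n = 3 each). Cox6a2, Cox7a1, Cox7b2, Cox8b, Cox8c and Ndufa4l2 were not analysed here.

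Promoter sequence was a further feature that the naming rule did not use. Windows of 300 bases, from 250 before to 50 after the start of the gene, were found in RefSeq (GRCm38.p6) for 71 of the 86 members; where a gene had more than 1 window, the one listed first was used. Searched on both strands, GCGCNTGCG, the core bound by nuclear respiratory factor 1 (NRF-1), a known regulator of these genes, was in 22 of 71 member windows (31.0%) and in 8.95% of 17492 protein-coding windows. CCGGAAG, the core of ETS factors such as GABPA (NRF-2), was in 16 (22.5%) against 11.9%. AANATGGC, a core of YY1, was in 16 (22.5%) against 6.69%. At least 1 of the 3 was in 45 member windows (63.4%) and in 23.9% of the protein-coding windows. The GCGCNTGCG core can match both strands of 1 site, and such matches overlap. G and C made up 59.0% of the bases in the median member window and 56.3% in the median protein-coding window. The part of base composition in the motif shares was not tested, and a match describes letters only.

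The windows of 5 members described here are shown 5′ to 3′ on the strand of the gene, with the matched motifs in capitals. Atp5b, the most abundant member, holds 1 YY1 core on the opposite strand, 17 bases after the start (chr10:128083057-128083356, + strand). Ndufa6, the highest accessory subunit of complex I, holds 1 NRF-1 core 23 bases after the start (chr15:82354242-82354541, - strand). Cox8a, the highest complex IV member by deposited RPKM, holds 2 ETS cores (chr19:7217567-7217866, - strand). Uqcrh and Ndufc2 had the smallest p-values between compound and wild-type HSCs. The window of Uqcrh holds 1 ETS core (chr4:116075021-116075320, - strand), and that of Ndufc2 none of the 3 motifs (chr7:97399753-97400052, + strand).
Atp5b: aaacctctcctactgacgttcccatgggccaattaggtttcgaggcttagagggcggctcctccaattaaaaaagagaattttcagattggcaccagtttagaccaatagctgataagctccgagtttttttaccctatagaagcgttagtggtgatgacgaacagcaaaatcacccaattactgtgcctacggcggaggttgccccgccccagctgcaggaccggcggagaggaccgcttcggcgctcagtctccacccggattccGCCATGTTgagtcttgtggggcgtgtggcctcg
Ndufa6: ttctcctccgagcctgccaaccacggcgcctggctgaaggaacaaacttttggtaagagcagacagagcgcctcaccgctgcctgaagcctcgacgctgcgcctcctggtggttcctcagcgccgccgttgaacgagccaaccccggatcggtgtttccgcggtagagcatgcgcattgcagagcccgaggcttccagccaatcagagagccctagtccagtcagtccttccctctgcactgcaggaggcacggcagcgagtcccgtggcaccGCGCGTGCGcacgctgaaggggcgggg
Cox8a: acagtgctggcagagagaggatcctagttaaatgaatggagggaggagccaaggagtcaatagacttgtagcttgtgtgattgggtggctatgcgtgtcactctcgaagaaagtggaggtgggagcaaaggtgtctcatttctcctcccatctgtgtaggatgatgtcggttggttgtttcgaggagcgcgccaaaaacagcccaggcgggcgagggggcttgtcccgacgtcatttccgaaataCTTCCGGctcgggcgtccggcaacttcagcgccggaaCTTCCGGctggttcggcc
Uqcrh: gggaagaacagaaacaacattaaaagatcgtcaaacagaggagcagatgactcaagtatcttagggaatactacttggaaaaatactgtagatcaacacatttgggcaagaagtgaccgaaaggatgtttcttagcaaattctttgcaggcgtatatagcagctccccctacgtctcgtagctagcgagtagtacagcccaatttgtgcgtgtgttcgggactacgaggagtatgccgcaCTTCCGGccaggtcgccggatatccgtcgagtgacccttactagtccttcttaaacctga
Ndufc2: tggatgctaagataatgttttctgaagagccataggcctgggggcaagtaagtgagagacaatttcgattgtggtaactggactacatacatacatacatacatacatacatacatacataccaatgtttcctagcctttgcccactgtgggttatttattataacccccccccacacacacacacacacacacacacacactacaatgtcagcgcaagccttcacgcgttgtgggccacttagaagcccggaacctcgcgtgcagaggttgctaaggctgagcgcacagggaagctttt

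Medians were close to 0 with and without a motif. Between compound and wild-type HSCs the median log2 difference of deposited RPKM was 0.09 over 22 members with an NRF-1 core, -0.01 over 16 with an ETS core, 0.08 over 16 with a YY1 core and -0.08 over 25 tested members with none of the 3. Their median levels were 9.71, 17.6, 20.7 and 14.8 reads per coding kb in the same order.

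Summed over all members, the transcript level of oxidative phosphorylation genes overlapped between each mutant genotype and wild type. The sum was 915, 933 and 1009.6 RPKM in compound libraries, 875, 887 and 1101 RPKM in Nras libraries, 896, 973 and 916 RPKM in Tet2 libraries and 1056, 944 and 1010.3 RPKM in wild-type libraries. Nras replicate 3 was the highest library and Nras replicate 1 the lowest. Means were 952 ± 50.3 RPKM in compound, 954 ± 127 RPKM in Nras, 929 ± 40.2 RPKM in Tet2 and 1003.5 ± 56.6 RPKM in wild-type HSCs (SD, n = 3 each). By complex, the sums for complex III were 95.4 ± 6.30 RPKM in compound, 90.8 ± 9.03 RPKM in Nras, 77.3 ± 11.9 RPKM in Tet2 and 99.7 ± 22.9 RPKM in wild type. For complex V they were 200.4 ± 13.3 RPKM in compound, 210.3 ± 26.1 RPKM in Nras, 198.7 ± 6.502 RPKM in Tet2 and 219.4 ± 8.71 RPKM in wild type. The spread between replicates was as large as these differences in complex III, and complex V in Tet2 libraries, at 192 to 205 RPKM, lay below wild-type libraries at 209.6 to 226 RPKM. The sums weight each member by its deposited length. Ndufb8 and Uqcrc1 entered with means of 3.18 and 6.24 RPKM, though they had 28.8 and 55.6 reads per coding kb. Cox8a entered with 55.0 RPKM and had 54.5 reads per coding kb. RPKM is a share of each library, and in bulk samples fewer cells of a type and less RNA per cell cannot be told apart.

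**Figure D2:**
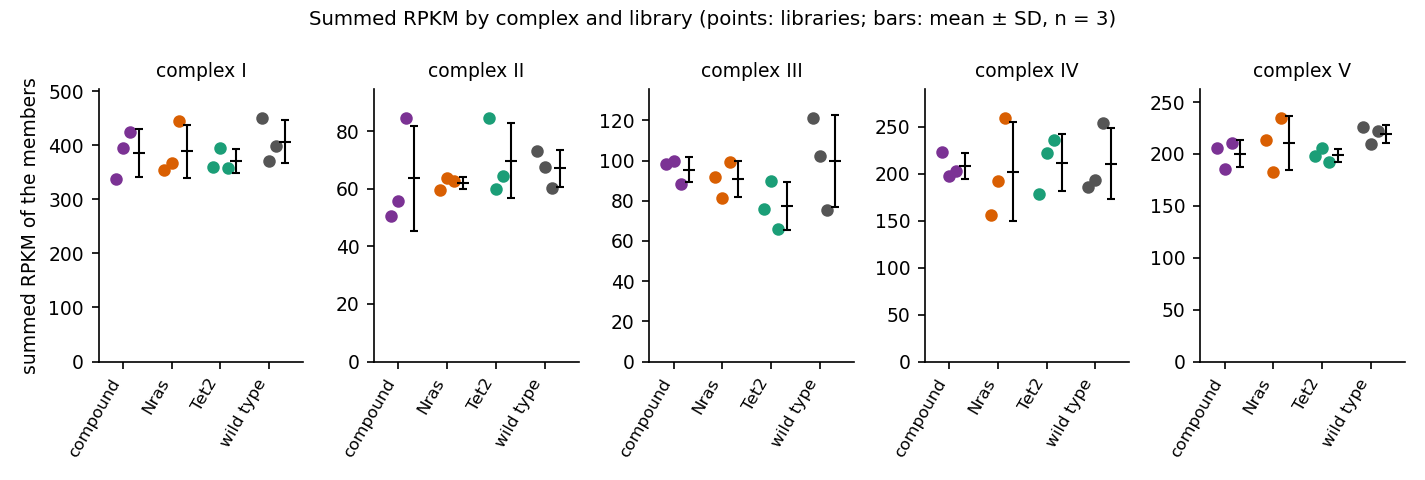
Summed deposited RPKM of the members of each complex (vertical axes, from 0) in each library of the 4 genotypes, with points for libraries and bars for mean ± SD (n = 3). Genotypes overlap in complexes I to IV, and in complex V the Tet2 libraries at 192 to 205 RPKM lie below the wild-type libraries at 209.6 to 226 RPKM.

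The spread of a member between libraries went with its read count. The coefficient of variation (CV, SD divided by mean) over the 12 libraries had a median of 36.8% and a range of 7.99% for Atp5a1 to 212% for Atp5k, the small subunit e of ATP synthase. It was lower at higher read counts, with a Spearman rho of -0.85 between CV and mean reads over 86 members, which share the same libraries. The median CV was 64.8% in the 20 members with under 200 reads per library and 20.6% in the 23 with 1000 or more. Counting error alone would give a median CV of 4.37%, and the observed CV was 8.15 times larger in the median member. The reads carry no molecular identifiers and so are not independent molecules, and this value and the floor used below cover counting error only. Many members have short transcripts, and 12 had a library with 0 reads. Their coding transcripts had a median of 644 bases, against 992 bases in the other 72.

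Several members were near 0 in a single library. In wild-type replicate 1, Ndufb10, an accessory subunit in the membrane arm of complex I, had 1 read, against 259 to 864 reads in the other 11 libraries. In the same library Cox5a, a nuclear-encoded subunit of cytochrome c oxidase, had 1 read, against 109 to 392. Ndufaf5, an assembly factor, had 0 there, against 33 to 694. Nras replicate 2 had 0 reads of Ndufc1 and of Atp5s, and compound replicate 1 had 0 reads of Ndufb3 and of Ndufaf2. In all, 8 members had at most 1 read in 1 library and more than 10 in each of the others. Of these 8, 3 were in wild-type replicate 1, the library with the most genes at 0 reads.

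**Figure D3:**
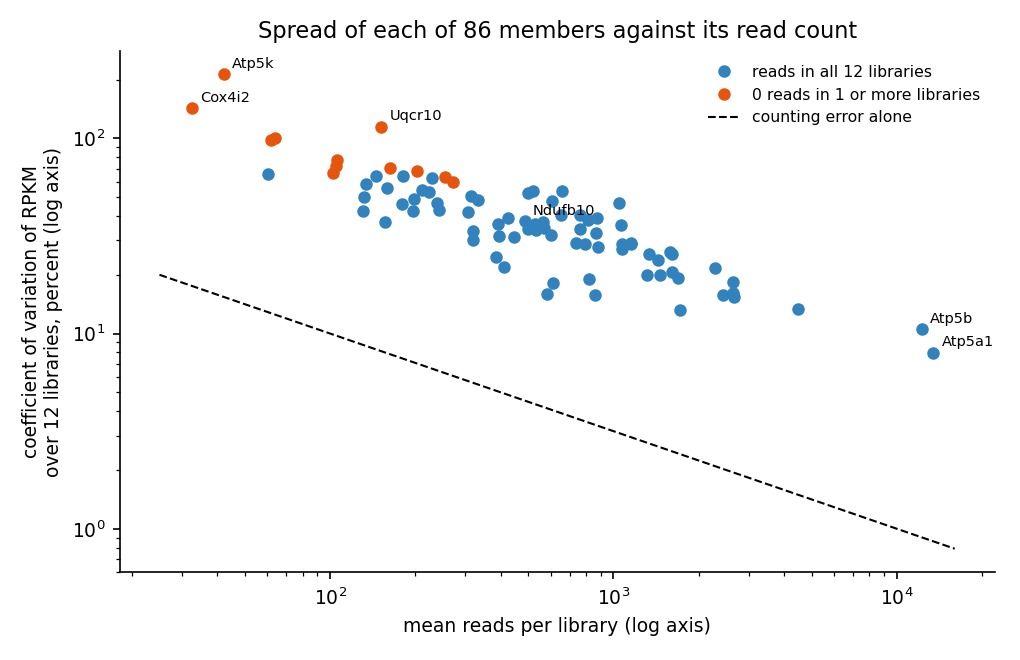
Coefficient of variation of RPKM over 12 libraries, in percent, against mean reads per library for 86 members, both on log axes; orange points are the 12 members with 0 reads in at least 1 library and the dashed line is counting error alone. Every member lies above the line, from Atp5a1 at 7.99% to Atp5k at 212%.

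No member passed the test in any of 8 comparisons (limma on deposited log2 RPKM, Benjamini-Hochberg adjusted p under 0.05 over 15478 tested genes). A gene entered the test if 3 or more libraries reached 1 RPKM, as 85 of 86 members did; Atp5g1, at 0.0104 to 1.06 RPKM, was not tested. Few genes of any kind passed. The share of all tested genes was 0.00646% in compound, Nras and Tet2 each against wild type and in compound against Tet2. It was 0% in compound against Nras, 0.0129% in the interaction, 0.0323% in Nras carriers against non-carriers (0.0258% higher) and 0% in Tet2 heterozygotes against the Tet2 wild type. Voom on the recovered reads, run as an alternative, also called 0 members in all 8 comparisons. The values below therefore describe members that did not pass. The same 3 wild-type libraries serve all 3 mutant genotypes. Single libraries moved the member medians: leaving out 1 at a time turned the median to the other side of 0 in every comparison except Tet2 against wild type.

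Compound HSCs were set against wild type to ask what both alleles together change. The median log2 difference of 85 members was 0.06, against 0.02 over all tested genes, with 47 members above 0 (55.3%, against 51.6% of all genes). At an unadjusted p under 0.05, 1 member was higher (1.18%, against 3.36% of all genes) and 6 were lower (7.06%, against 3.06%). Without wild-type replicate 1 or 3 the lower members numbered 3, and without compound replicate 3 they numbered 7 and the median was -0.005. The higher sums of megakaryocyte and stroma markers and the lower sums of B lineage markers in these compound libraries are given above. Uqcrh, the hinge protein of complex III that helps cytochrome c dock, had 9.25, 6.02 and 9.36 RPKM in compound libraries, against 10.2, 16.9 and 18.4 RPKM in wild-type libraries. All 3 compound libraries lay below all 3 wild-type libraries, by a log2 difference of -0.87 ± 0.27 SE (limma, unadjusted p = 0.0094, adjusted p = 0.754). Nras and Tet2 libraries were at 8.53 to 12.1 and 9.33 to 12.9 RPKM. Ndufc2, an accessory subunit of the membrane arm of complex I, had 5.75, 6.31 and 14.6 RPKM in compound libraries and 14.5, 16.1 and 19.1 RPKM in wild-type libraries. Compound replicates 1 and 2 were low and replicate 3 lay just above the lowest wild-type library, for a log2 difference of -1.03 ± 0.33 SE (adjusted p = 0.754).

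In complex V, Atp5o, the subunit that joins the stalk to the catalytic head and confers oligomycin sensitivity, had 2.14, 3.19 and 3.52 RPKM in compound libraries, against 5.89, 3.94 and 7.29 RPKM in wild-type libraries. The groups did not overlap, with a log2 difference of -0.94 ± 0.31 SE (limma adjusted p = 0.754). Atp5k had 0 reads in all 3 compound libraries, and 268, 4 and 74 reads in wild-type libraries. Counting 0 as a floor of 3 reads per library, its mean RPKM was at least 47.1-fold lower in compound than in wild type. Wild-type replicate 1 held most of these reads, and without it the bound was 10.4-fold. Atp5k also had 0 reads in 1 Nras and 1 Tet2 library, and its adjusted p was 0.754. In complex IV, Cox7a2, a subunit at the contact between complexes, had 3.46, 5.34 and 5.38 RPKM in compound libraries, against 22.6, 8.62 and 14.4 RPKM in wild-type libraries. Again the groups did not overlap, with a log2 difference of -1.61 (adjusted p = 0.767). Ndufa6, given below, was the remaining one of the 6, at -0.75 ± 0.34, or -0.28 without compound replicate 1. Over all members, 6 were lower and 1 higher in every compound than in every wild-type library (7.06% and 1.18%), against 5.16% and 6.09% of all tested genes.

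Upward, the smallest p belonged to Cox6b2. It had 1.97, 4.17 and 3.34 RPKM in compound libraries and 0.213, 1.31 and 2.10 RPKM in wild-type libraries, a log2 difference of 1.85 ± 0.78 SE (limma adjusted p = 0.760). Wild-type replicate 1, with 18 reads, was the lowest library, and without it the difference was 0.86. Ndufa11, a membrane-arm subunit of complex I, had 5.44, 3.998 and 3.31 RPKM in compound libraries, against 2.37, 1.18 and 2.97 RPKM in wild-type libraries, with no overlap. Its log2 difference was 1.04 ± 0.51 SE (limma adjusted p = 0.772), and 0.65 without wild-type replicate 2. Ndufaf6, an assembly factor, and Ndufa2, an accessory subunit of the matrix arm, were 1.54 ± 0.83 and 1.26 ± 0.65 higher on the log2 scale in compound libraries, with overlapping groups. Without wild-type replicate 1 the value for Ndufaf6 was 0.74. For Ndufa2 it was 2.16 without wild-type replicate 2 and 0.77 without replicate 3.

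**Figure D4:**
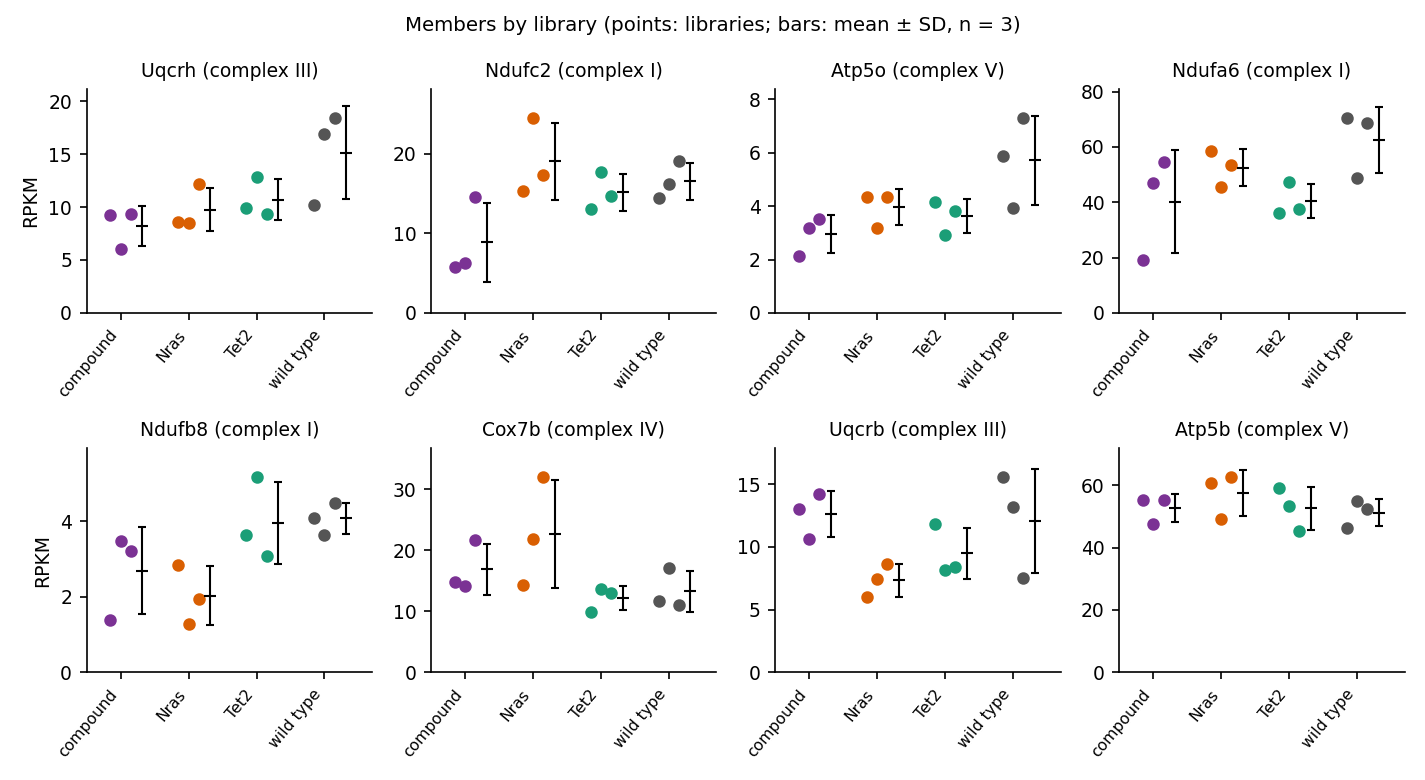
Deposited RPKM (vertical axes, from 0) of 8 members in each library of the 4 genotypes, with points for libraries and bars for mean ± SD (n = 3). Uqcrh and Atp5o in compound libraries lie below all wild-type libraries, Uqcrb in Nras libraries, at 5.97 to 8.60 RPKM, lies below all compound libraries, and Atp5b stays at 45.4 to 62.5 RPKM in all 12 libraries.

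Nras HSCs set beside wild type show the activated Ras allele on its own. The median log2 difference of the members was -0.02, against 0.01 over all genes, with 42 members above 0 (49.4%, against 51.4% of all genes). At an unadjusted p under 0.05, 3 members were higher (3.53%, against 3.19% of all genes) and 3 lower (3.53%, against 2.42%). Without Nras replicate 3, 7 members were lower and none higher, and without Nras replicate 1, 4 were higher and the median was 0.07. Ndufb8, an accessory subunit of the membrane arm of complex I, had 2.85, 1.29 and 1.94 RPKM in Nras libraries, against 4.08, 3.64 and 4.48 RPKM in wild-type libraries. It was the only member with all Nras libraries below all wild-type libraries (1.18% of members, against 4.48% of all genes), by a log2 difference of -1.07 ± 0.42 SE (limma adjusted p = 0.870). Uqcrb, a complex III subunit at the ubiquinone site, had 5.97, 7.40 and 8.60 RPKM in Nras libraries and 15.5, 13.2 and 7.48 RPKM in wild-type libraries. Wild-type replicate 3 lay within the Nras range, and the log2 difference was -0.67 ± 0.28 SE (adjusted p = 0.870). Uqcrh lay in the same direction, at -0.61 ± 0.27 SE.

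The 4 members with the smallest p above 0 in Nras HSCs belonged to complexes I, III and IV. Cox7b, an X-linked subunit of cytochrome c oxidase, had 14.2, 21.8 and 31.9 RPKM in Nras libraries, against 11.6, 17.2 and 10.9 RPKM in wild-type libraries. The groups overlapped, with a log2 difference of 0.73 ± 0.30 SE (limma adjusted p = 0.870), or 0.44 without Nras replicate 3. Uqcrc2, a core protein of complex III, had 10.9, 16.7 and 13.7 RPKM in Nras libraries and 10.2, 11.5 and 9.24 RPKM in wild-type libraries, a difference of 0.40 ± 0.19, or 0.26 without Nras replicate 2. Ndufa2 differed by 1.57 ± 0.65, but 2 of its 3 wild-type libraries were at 5.08 and 4.47 RPKM and the remaining one at 30.7 RPKM, above 2 of the 3 Nras libraries (23.1, 35.01 and 22.3 RPKM). Without wild-type replicate 2 its difference was 2.46 (limma adjusted p = 0.0788), the smallest adjusted p of any member in any setting tried. Cox6b2 differed by 1.79 ± 0.78, and by 0.80 without wild-type replicate 1. No member was higher in every Nras than in every wild-type library, against 5.27% of all genes.

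Averaged over the Tet2 genotypes, the 6 Nras carriers (compound and Nras) were set against the 6 non-carriers (Tet2 and wild type). The median member difference was 0.02 on the log2 scale, against -0.01 over all genes. No member separated the groups in either direction, against 0.459% of all genes upward and 0.388% downward. Ndufb8 had the smallest p, with 1.29 to 3.47 RPKM in carriers and 3.07 to 5.15 RPKM in non-carriers. Its log2 difference was -0.85 ± 0.30 SE (limma unadjusted p = 0.017, adjusted p = 0.541). Compound replicates 2 and 3, at 3.47 and 3.22 RPKM, and Tet2 replicate 3, at 3.07 RPKM, made the overlap. Cox7b, at 0.59 ± 0.21 SE, and Uqcrc2, at 0.35 ± 0.14 SE, were on the upper side (adjusted p = 0.556 and 0.613). Uqcrh was on the lower side at -0.50 ± 0.19 SE (adjusted p = 0.593). Unadjusted, 2 members were higher (2.35%, against 3.87% of all genes) and 2 lower (2.35%, against 3.37%).

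Tet2 HSCs set beside wild type show the loss of 1 Tet2 copy on its own. The median log2 difference of the members was -0.07, against 0.04 over all genes, with 35 members above 0 (41.2%, against 54.2% of all genes). At an unadjusted p under 0.05, 1 member was higher (1.18%, against 1.82% of all genes) and 1 lower (1.18%, against 1.54%). Without wild-type replicate 2 or 3, 3 members were higher and 2 lower. Cox7a2l had 33.9, 38.7 and 38.5 RPKM in Tet2 libraries, against 53.8, 39.3 and 49.5 RPKM in wild-type libraries. The groups did not overlap, though Tet2 replicate 2 and wild-type replicate 2 were close, and the log2 difference was -0.35 ± 0.15 SE (limma adjusted p = 1). Ndufa7, an accessory subunit of the matrix arm of complex I, had 3.37, 3.91 and 4.81 RPKM in Tet2 libraries and 1.76, 3.45 and 2.72 RPKM in wild-type libraries, with overlap, a difference of 0.64 ± 0.29, or 0.38 without wild-type replicate 1. Cox8a, a small subunit of the oxidase, was at 67.6, 64.4 and 93.2 RPKM in Tet2 libraries, above wild-type libraries at 26.2, 55.7 and 58.0 RPKM, with a log2 difference of 0.75 ± 0.44 SE, or 0.38 without wild-type replicate 1. In all, 2 members were higher and 5 lower in every Tet2 than in every wild-type library (2.35% and 5.88%, against 5.24% and 4.01% of all genes).

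Complex III stood on 1 side in this comparison. All 8 of its members had a difference below 0 between Tet2 and wild-type HSCs, with a median of -0.28 and a range of -3.03 to -0.06, and none passed the test. The -3.03 belonged to Uqcr10, with 0 reads in Tet2 replicate 1 and 5.05 and 3.71 RPKM in the other Tet2 libraries, against 19.5, 2.98 and 1.16 RPKM in wild-type libraries. Without Tet2 replicate 1 its difference was 0.09, and 7 of the 8 members lay below 0. Without Tet2 replicate 3, 6 of the 8 did. Uqcr11, a small subunit, had 0.418, 2.81 and 2.31 RPKM in Tet2 libraries and 4.94, 2.86 and 2.81 RPKM in wild-type libraries. Without Tet2 replicate 1, with 22 reads of it, its difference was -0.42 in place of -1.29. In compound HSCs, 6 of the 8 were above wild type and the median was 0.11, and in Nras HSCs 4 of 8 were above with a median of -0.08. These too moved with 1 library, to a median of -0.22 in compound HSCs without wild-type replicate 3 and to 0.09 in Nras HSCs without Nras replicate 2.

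Averaged over the Nras genotypes, the 6 Tet2 heterozygotes (compound and Tet2) differed from the 6 libraries with both Tet2 copies (Nras and wild type) by a member median of -0.01 on the log2 scale, against 0.02 over all genes. Unadjusted, no member was higher (against 1.87% of all genes) and 3 were lower (3.53%, against 1.93%): Ndufc2, Atp5o and Ndufa6. Ndufc2 had 5.75 to 17.7 RPKM in heterozygotes and 14.5 to 24.4 RPKM in libraries with both copies, a log2 difference of -0.67 ± 0.23 SE (limma adjusted p = 0.963). Atp5o had 2.14 to 4.16 RPKM in heterozygotes and 3.17 to 7.29 RPKM in the others, a difference of -0.53 ± 0.22. Ndufa6 had 19.1, 46.9 and 54.7 RPKM in compound and 36.0, 47.3 and 37.7 RPKM in Tet2 libraries, against 58.6, 45.5 and 53.5 RPKM in Nras and 70.4, 48.6 and 68.6 RPKM in wild-type libraries. Compound replicate 1 was its lowest library, and without it the difference was -0.33 in place of -0.57. The groups overlapped for all 3 members, as for all 85 tested, against 0.0646% of all genes that separated in each direction.

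Compound HSCs were also set against each single mutant, to ask what the added allele changes. Against Nras, the member median was -0.01, the same as over all genes (-0.01), with 41 members above 0 (48.2%, against 49.1% of all genes). At an unadjusted p under 0.05, 1 member was higher and 1 lower (1.18% each, against 1.89% and 2.15% of all genes). Ndufc2 was lower in every compound library, at 5.75, 6.31 and 14.6 RPKM, against 15.3, 24.4 and 17.4 RPKM in Nras libraries. Its log2 difference of -1.21 ± 0.33 SE had the smallest unadjusted p of any member in the 8 comparisons (limma unadjusted p = 0.0041, adjusted p = 1). Uqcrb was higher in every compound library, at 13.0, 10.6 and 14.2 RPKM, than in Nras libraries at 5.97, 7.40 and 8.60 RPKM, with a difference of 0.79 ± 0.28. In all, 3 members were higher and 2 lower without overlap (3.53% and 2.35%, against 4.15% and 4.33% of all genes). Against Tet2, the member median was 0.09, against -0.03 over all genes. Without Tet2 replicate 1 it was -0.056, against -0.057 over all genes. Unadjusted, no member was higher (against 2.58% of all genes) and 1 was lower (1.18%, against 2.87%). There, Ndufc2 was at -0.89 ± 0.33 SE (adjusted p = 0.830), and Ndufv3, an accessory subunit of the matrix arm, at 0.59 ± 0.28 (adjusted p = 0.921), or 0.38 without compound replicate 2. Without overlap, 5 members were higher and 2 lower (5.88% and 2.35%, against 6.22% and 6.53% of all genes).

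The interaction asks whether the compound genotype differs from the sum of both single effects. Its member median was 0.06, against -0.05 over all genes, with 45 members above 0 (52.9%, against 46.3% of all genes), and no member passed. Leaving out 1 library moved the median to between -0.058, without Tet2 replicate 1, and 0.13, without Nras replicate 3. At an unadjusted p under 0.05, 2 members were above 0 and 1 below (2.35% and 1.18%, against 1.43% and 1.95% of all genes). Uqcrb had the smallest p, with 1.09 ± 0.39 SE (limma unadjusted p = 0.019, adjusted p = 0.996). It averaged 12.6 ± 1.82 RPKM in compound, 7.32 ± 1.31 RPKM in Nras, 9.48 ± 2.07 RPKM in Tet2 and 12.1 ± 4.15 RPKM in wild-type HSCs. Cox7a2l followed with 0.60 ± 0.22, with 44.7 ± 5.93 RPKM in compound, 37.7 ± 5.62 RPKM in Nras, 37.0 ± 2.74 RPKM in Tet2 and 47.5 ± 7.47 RPKM in wild-type HSCs. Ndufc2 had -1.07 ± 0.46 (adjusted p = 0.996).

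**Figure D5:**
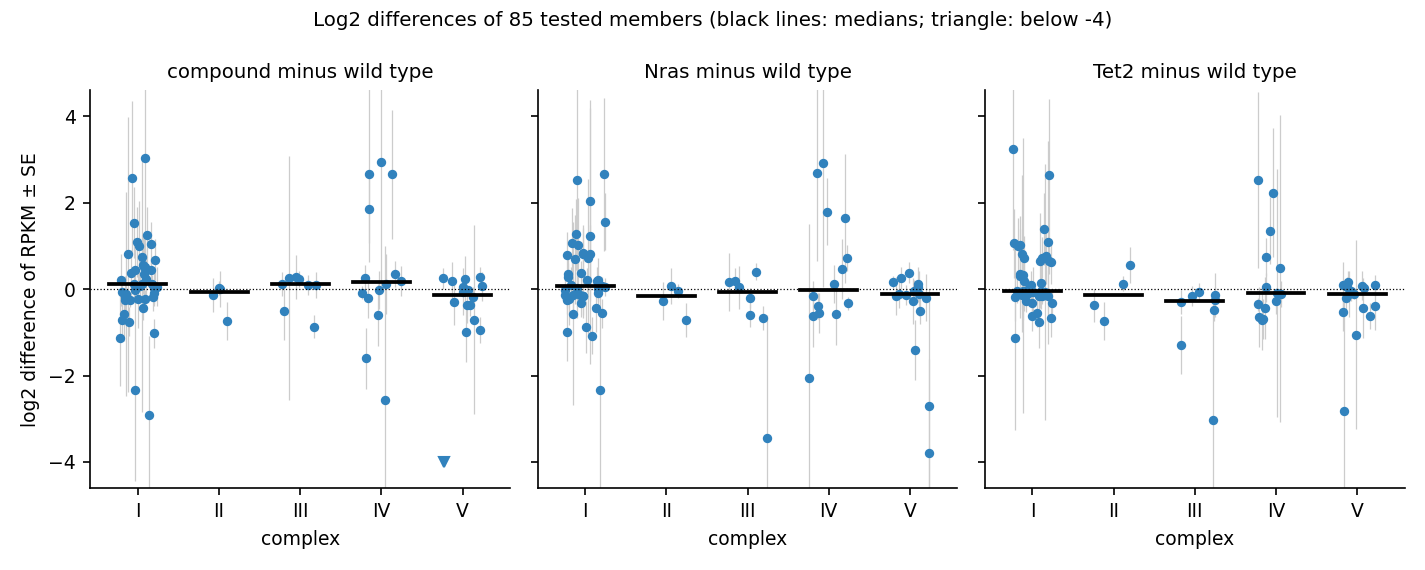
Log2 difference of deposited RPKM from wild type (vertical axis, ± SE) for 85 tested members in compound, Nras and Tet2 HSCs, by complex, with black lines at the median of each complex; some bars run past the ends of the axis, and a triangle marks Atp5k, which lies below -4. Medians lie close to 0 except in complex III of Tet2 HSCs at -0.28, and wide bars belong to members with few reads.

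The widths of the intervals show what differences these libraries could still hold. For the compound against wild type, the 95% interval lay within -1 to 1 on the log2 scale for 30 of 85 members, and for 26 and 28 members in the Nras and Tet2 comparisons. Averaged over 6 libraries a side it did so for 47 members between Nras carriers and non-carriers and for 43 between Tet2 heterozygotes and the rest. The abundant members were the best bounded. Atp5a1 differed by -0.03 (95% interval -0.26 to 0.20) between compound and wild type, Atp5b by 0.04 (-0.26 to 0.34) and Sdha by 0.03 (-0.35 to 0.41). Sdha averaged 25.8 ± 2.18 RPKM in compound, 24.96 ± 5.77 RPKM in Nras, 27.7 ± 3.87 RPKM in Tet2 and 25.3 ± 2.54 RPKM in wild-type HSCs (SD, n = 3 each). Its partners were less certain: Sdhb differed by -0.73 (-1.71 to 0.24), or -0.47 without wild-type replicate 1, Sdhc by -0.13 (-0.997 to 0.74) and Sdhd by 0.00 (-0.92 to 0.92). In each comparison the intervals of the remaining members reached past a 2-fold difference in at least 1 direction.

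Members showed little covariation from library to library. Over the 12 libraries the median Pearson r of 3570 pairs of tested members was 0.03, and 0.11 over the 253 pairs of members with 1000 or more reads. Pairs within a complex had medians of 0.01 in complex I, 0.11 in complex II, 0.07 in complex III, 0.04 in complex IV and 0.03 in complex V. These pairs share libraries and depth, and the values are descriptions.

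The subunits encoded by mitochondrial DNA were read from RNA that a kit had depleted of mitochondrial transcripts in all samples. All 13 mitochondrial protein genes were above wild type in Tet2 HSCs, with a median log2 difference of 0.31. This direction turned on wild-type replicate 1: without it 4 of the 13 were above wild type and the median was -0.04. All 13 were lower in compound than in Tet2 HSCs, with a median of -0.62. With 1 library left out, 12 or 13 of them were lower there and the median was -0.84 to -0.41. Both comparisons share the Tet2 libraries, and none of the 13 passed in either. At an unadjusted p under 0.05, 3 were lower in compound than in Tet2 HSCs (23.1%, against 2.87% of all genes): mt-Nd1, mt-Nd4 and mt-Nd5, all subunits of complex I. Without compound replicate 1, compound replicate 2 or Tet2 replicate 3 there were none, without Tet2 replicate 2 there was 1, and without compound replicate 3 or Tet2 replicate 1 there were 2. The last, mt-Nd5, had 132, 127 and 188 RPKM in compound libraries, against 291, 203 and 267 RPKM in Tet2 libraries. The groups did not overlap, with a log2 difference of -0.78 ± 0.29 SE (limma adjusted p = 0.832). How much mitochondrial RNA was removed from each library was not measured here, and its part in these differences was not tested.

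Other genes of the pathway had none past the threshold (limma, adjusted p under 0.05) in any of the 8 comparisons, in the mitochondrial list and 7 others. Assembly factors outside the naming rule had 20 of 41 above wild type in compound HSCs (median log2 difference -0.05), other electron carriers and ATP exchange genes 12 of 19 (0.08), coenzyme Q synthesis genes 4 of 12 (-0.08) and regulators of nuclear mitochondrial genes 11 of 20 (0.02). Genes of the TCA cycle and pyruvate dehydrogenase had 9 of 22 (-0.02), the mitochondrial ribosome 36 of 76 (-0.03) and protein import 11 of 22 (-0.01). In that comparison, at an unadjusted p under 0.05, 1 of the outside assembly factors was lower (2.44%), 1 of the carriers higher (5.26%), and 2 mitochondrial ribosome genes higher and 3 lower (2.63% and 3.95%), against 3.36% of all genes higher and 3.06% lower. The remaining lists had none. Among assembly factors, Cox10, which farnesylates heme for cytochrome c oxidase, averaged 9.92 ± 1.20 RPKM in Tet2 and 4.98 ± 1.37 RPKM in wild-type HSCs with no overlap, a log2 difference of 1.03 ± 0.29 SE (limma adjusted p = 1). Coa7, another factor of that complex, averaged 1.92 ± 0.774 RPKM in compound and 4.13 ± 0.251 RPKM in wild-type HSCs, a difference of -1.18 ± 0.33 (adjusted p = 0.747). These were the smallest p-values of that list in their comparisons. Other lists held smaller ones, also short of the threshold. Mrpl1, of the mitochondrial ribosome, differed by -1.14 ± 0.31 between compound and wild type (limma unadjusted p = 0.0041, adjusted p = 0.740). Etfb, of the carriers, differed by 0.74 ± 0.20 between compound and Tet2 HSCs (limma unadjusted p = 0.0035, adjusted p = 0.604).

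Reads of some members cannot be assigned with certainty. Near-identical copies elsewhere in the genome (at least 95% identity over at least 50% of the coding transcript) were found for 10 of 84 members. There were 23 such copies, of which 20 are processed pseudogenes and 16 are in the table. Atp5l, the small subunit g of ATP synthase, had 9 copies, and Atp5h and Uqcrb had 3 each. Gm10250, a copy of Atp5h with 98.97% identity, averaged 606 reads per library, against 296 to 1025 reads per library for Atp5h. Levels of these 10 members, Uqcrb included, therefore depend on how reads with more than 1 match were counted, which is not given in the sources used here. For 26 members an exon overlaps one of a gene on the opposite strand, such as Atp5j with Gabpa, which encodes an ETS factor, and Cox4i1 with Emc8. For 4 members, Ndufb8 (with Gm20538), Ndufb2, Ndufb9 and Atp5g2, an exon overlaps one of a gene on the same strand, whose reads strand cannot separate. The library kit keeps strand, but the strand setting of the counting is not given in the sources used here.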

How the data were processed

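RNA from 12 libraries of sorted SLAM HSCs, 3 per genotype, was sequenced after removal of ribosomal and mitochondrial RNA, per the labels' protocols. The submitters' processing notes name CASAVA 1.8.2, TopHat2, edgeR and the mm10 build. The authors deposited log2 RPKM per gene, treated here as an other unit than counts. Read counts were recovered from the deposited values: at a prior of 0.25 reads per gene, 100% of values came out whole within 0.001 reads. The total was 19205045 to 36890942 reads per library.

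The main test was limma 3.58.1 (R 4.3.3) with a variance trend and 1 mean per genotype over all 12 libraries, 8 residual degrees of freedom, on the 15478 genes that reached 1 RPKM in 3 or more libraries. P-values were Benjamini-Hochberg adjusted over those genes, with a threshold of 0.05. The 8 comparisons were 3 against wild type, compound against each single mutant, the interaction, and the averaged effect of each allele. Named genes are the highest and lowest member per complex by RPKM, the 4 members with the smallest p in each direction (2 for the interaction and for compound against single mutants), isoform sets and the Sdh genes. Others, such as Ndufb10 and the highest members per coding kb, were chosen after their values were seen. The members and lists were chosen with earlier results of these data known. The script was tested on simulated data. Transcript lengths, overlaps and copies came from GENCODE M21, promoter sequences from RefSeq (GRCm38.p6). Deviations from the genotype mean had a median correlation of 0.03 between same-numbered libraries and -0.02 between other libraries of different genotypes. The numbers were not used as pairs in the main test. By Xist, every library numbered 1 was male. Alternatives were other scalings, filters, pseudocounts and weights, voom on recovered reads, a replicate block, sex as a term (Xist above or below 10 RPKM), and leaving out libraries.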

Additional observations from a re-analysis of the deposited data

How the results depend on the processing

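The count of members past the threshold was 0 in all 8 comparisons under every alternative run, with each library left out included. The 1196 alternative values of the members named for the smallest p in a comparison kept their direction and their side of the threshold; members named for their level, isoform set or complex II were not followed in this way. The smallest adjusted p of any member was 0.0788, for Ndufa2 in Nras against wild-type HSCs without wild-type replicate 2. The member medians moved beyond the spread in 2 cases: compound against Tet2 was -0.056 without Tet2 replicate 1, and Nras against wild type was 0.10 with library quality weights. The cause was not tested. Leaving out 1 library gave medians of -0.08 to 0.10 for compound against Nras, -0.056 to 0.10 for compound against Tet2, -0.01 to 0.08 for compound against wild type, -0.07 to 0.07 for Nras against wild type, -0.13 to -0.03 for Tet2 against wild type, -0.058 to 0.13 for the interaction, -0.02 to 0.07 for Nras carriers and -0.03 to 0.07 for Tet2 heterozygotes. Uqcr10, named for its size in complex III, turned direction without Tet2 replicate 1. With sex as a term, chosen after seeing the data, the median was -0.04 for Tet2 against wild type, -0.003 for compound against Tet2 and 0.04 for Tet2 heterozygotes. Correlations between same-numbered libraries were -0.125 to 0.136 (median 0.03), against -0.143 to 0.162 (median -0.02) for other numbers. The replicate block also called 0 members in all 8 comparisons. Over all genes, voom called 20 genes in Nras carriers against non-carriers, library quality weights 11, the replicate block 7, quantile normalization 1 and the main test 5. Without wild-type replicate 1 and Nras replicate 2, another such alternative, no member passed. Of the members, 35 had under 100 reads in at least 1 library, and the CV over libraries was 3.83 to 15.1 times counting error.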
